A study of Mus musculus with 4 samples.

Results

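The sites described here were distal RUNX1 peaks that appeared only in the peak list of the library labelled +DOX. They were selected on measured values, by where each library had a called peak and by the score of that peak. A peak on chromosomes 1 to 19 was taken when it overlapped no peak of the other RUNX1 list by 1 bp, when its summit was over 1500 bp away from any annotated transcription start, and when its -log10 q, the score that grows with the confidence of the call, was at least 5. Of the 21467 peaks of this list, 7127 overlapped no peak of the other library, 4245 of these were distal, and 2423 reached the score. These 2423 peaks, called members below, made up 34.9% of the 6945 distal peaks of the library with that score, and the other 4522 overlapped a peak of the other list. The mirrored rule gave 932 distal peaks only in the library labelled -DOX (-DOX-only peaks), or 17.7% of its 5268 distal peaks with that score. Both RUNX1 lists together held 39519 peaks on these chromosomes. Just inside and outside the limits, the lowest score was 5.01 and the next 4.998, and the shortest distance to a start was 1507 bp and the next 1500 bp, while the smallest gap to a peak of the other list was 7 bp.

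Both RUNX1 libraries came from mouse embryonic stem cells (ESCs) that carry a Tet-on dominant-negative FOS (dnFOS), a peptide that stops JUN-related proteins from binding DNA once it is switched on. The cells were differentiated in vitro to d2 floating hematopoietic progenitors, 1 library with Doxycycline (+DOX) and 1 with no treatment (-DOX), and the untreated cells carried the same transgene. After crosslinking with DSG and formaldehyde, RUNX1-bound chromatin was recovered with an antibody, and the series also holds 2 libraries labelled H3K27me3. The records of the treatment disagree. The sample title and treatment label of the library used here say Doxycycline, whereas the run name of its peak list says untreated, and the reverse holds for the other library. It is therefore called the library labelled +DOX, and with the libraries exchanged the same 2423 peaks would be those found only without DOX. With 1 library per label no replicate error could be measured and the conditions could not be tested, and the intervals given below cover counting error over sites only. The depth of the libraries is unknown, so a peak missing from the other list may lie just below its threshold, and binding in fewer cells cannot be told apart from weaker binding in each cell. Peak lists hold no expression level, so the labelled cell type was not checked against its markers.

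RUNX1 is the DNA-binding partner of CBFB and is essential for the emergence of blood cells from hemogenic endothelium. It binds enhancers together with other factors, whose motifs lie next to its own. Among these are the ETS factor PU.1 (encoded by Spi1) and the C/EBP proteins, which drive macrophage and granulocyte development, GATA1 and GATA2, which act in erythroid, megakaryocyte, mast and early progenitor cells, and AP-1, the dimers of FOS and JUN proteins that carry signals from the cell surface to enhancers.

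Stretches of the reference sequence at the summits give examples of these sites. Only members with a motif match were eligible, so the examples are not typical of all members. In 200 bp at the summit, 27.4% of members had none of the 6 motifs marked here, 11.8% had PU.1 and 10.9% AP-1. The sequences were taken from mm10, plus strand, with 50 bases to either side of the summit, and each is named for the nearest protein-coding gene. Capitals mark matches on either strand to the RUNX motif TGTGGTT, the PU.1 motif GAGGAAGT, the C/EBP motif TTGCNNAA, the AP-1 motif TGAGTCA, the GATA motif AGATAA, and any of the 4 ETS forms CAGGAAA with CAGGAAG plus CCGGAAA with CCGGAAG. The first holds RUNX between C/EBP matches and is the highest-scoring member with a sequence shown. The Il4ra and Fosl2 sites are strong members with PU.1. The Map7 and Nrp1 sites carry PU.1 and AP-1 matches that run into each other, and Kalrn, Tns3 and Cdk6 hold AP-1. The Runx3, Thbs1 and Mecom sites carry PU.1, PU.1 with RUNX, and RUNX, and the Runx1 site is a strong member with GATA.

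Mef2c (intron of 2310067P03Rik), chr13:83074373-83074473: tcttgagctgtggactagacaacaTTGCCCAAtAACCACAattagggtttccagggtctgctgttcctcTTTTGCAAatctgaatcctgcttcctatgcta

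Il4ra (intron), chr7:125555646-125555746: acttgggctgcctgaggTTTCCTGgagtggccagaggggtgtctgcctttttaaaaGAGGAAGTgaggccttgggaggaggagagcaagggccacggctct

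Fosl2 (intron of Babam2), chr5:32077270-32077370: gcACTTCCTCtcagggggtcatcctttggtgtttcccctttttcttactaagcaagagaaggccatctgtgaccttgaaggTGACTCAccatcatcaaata

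Map7 (intron of Map3k5), chr10:20104702-20104802: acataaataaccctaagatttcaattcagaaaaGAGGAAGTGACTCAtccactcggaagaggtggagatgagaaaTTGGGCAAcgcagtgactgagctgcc

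Nrp1 (intergenic), chr8:127963010-127963110: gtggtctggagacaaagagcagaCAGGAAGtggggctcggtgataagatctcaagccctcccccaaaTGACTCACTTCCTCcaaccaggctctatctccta

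Kalrn (intron), chr16:34120953-34121053: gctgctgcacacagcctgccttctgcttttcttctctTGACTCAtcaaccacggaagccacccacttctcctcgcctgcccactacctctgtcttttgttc

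Tns3 (intergenic), chr11:8685328-8685428: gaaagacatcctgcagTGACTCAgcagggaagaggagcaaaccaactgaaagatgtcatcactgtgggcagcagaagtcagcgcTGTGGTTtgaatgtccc

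Cdk6 (intergenic), chr5:3152164-3152264: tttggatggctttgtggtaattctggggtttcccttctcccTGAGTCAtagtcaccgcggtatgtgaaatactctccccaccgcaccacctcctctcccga

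Runx3 (intergenic), chr4:135085607-135085707: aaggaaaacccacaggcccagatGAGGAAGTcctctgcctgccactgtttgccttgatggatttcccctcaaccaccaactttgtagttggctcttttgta

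Thbs1 (intron of Gm13986), chr2:117996314-117996414: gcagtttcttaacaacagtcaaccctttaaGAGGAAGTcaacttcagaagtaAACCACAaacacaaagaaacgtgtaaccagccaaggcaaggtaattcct

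Mecom (intron), chr3:30234170-30234270: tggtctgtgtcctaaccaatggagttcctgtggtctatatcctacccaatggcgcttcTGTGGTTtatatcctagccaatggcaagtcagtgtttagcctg

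Runx1 (intron), chr16:92800983-92801083: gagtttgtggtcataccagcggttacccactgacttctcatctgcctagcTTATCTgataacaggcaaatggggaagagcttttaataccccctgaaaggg

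The members lay in the same kinds of place as the other distal RUNX1 sites. Their summits were in introns at 48.7% (95% Wilson interval 46.7 to 50.6), between genes at 46.7%, in coding exons at 1.53% and in other exons at 3.10%. For the distal peaks in both lists the shares were 49.4%, 45.9%, 1.48% and 3.16%. The median distance to the nearest start of any gene was 10578 bp for members and 10457 bp for peaks in both lists, and to the nearest start of a protein-coding gene 23599 bp and 23768 bp. The median GC content of the 200 bp at the summit was 49.5% and 51%, and at least 50% of that window was soft-masked repeat at 11.4% and 12% of sites. Members were called on every chromosome, from 26.5% of the distal peaks of chromosome 8 to 41.9% of those of chromosome 5. Their scores and folds come from the peak calls that the rule used, and are given as a description. The median -log10 q was 7.37 (range 5.01 to 42.7) against 14.5, the median fold enrichment over the local background 5.17 against 6.72, and the median width 221 bp against 317 bp. A peak of the other list was rarely close, at a median gap of 24885 bp, and 2306 members had none within 1000 bp.

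The classes were compared by the motifs at their summits. The RUNX motif was found in the 200 bp at the summit of 27.8% of members (26.0 to 29.6) and of 4.75% of shifted windows, which lay 2000 bp to the left and right of the same sites. It was at 26.5% of the distal peaks in both lists, a difference of 1.24 points whose 95% Newcombe interval (-0.94 to 3.45) held 0. At the -DOX-only peaks it was at 19.8%, which was 7.93 points (4.72 to 10.96) below the members. PU.1 was found at 11.8% of members (10.6 to 13.2), at 7.14% of the peaks in both lists and at 2.36% of the -DOX-only peaks. The difference from the peaks in both lists was 4.70 points (3.24 to 6.23), and in the windows shifted from members PU.1 was at 1.38%. C/EBP was at 12.7% of members (11.4 to 14.1), against 7.94% in their shifted windows. At the peaks in both lists it was at 8.18%, near the 7.88% of the windows shifted from those. The difference between the classes was 4.53 points (3.01 to 6.11).

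The AP-1 motif was at 10.9% of members (9.72 to 12.2), 7.30% of the peaks in both lists and 5.69% of the -DOX-only peaks, with 3.34% in the windows shifted from members. Members exceeded the peaks in both lists by 3.60 points (2.18 to 5.09) and the -DOX-only peaks by 5.21 points (3.16 to 7.06). GATA went the other way. It was at 12.5% of members (11.3 to 13.9), close to the 11.6% of their shifted windows, while it was at 23.5% of the peaks in both lists and 28.3% of the -DOX-only peaks. The difference from the peaks in both lists was -10.96 points (-12.7 to -9.12). The E-box CAGCTG was at 15.2% of members and 18.6% of the peaks in both lists, a difference of -3.41 points (-5.21 to -1.56). ETS matches were at 34.8% and 37.0%, and this difference of -2.21 points had an interval that held 0 (-4.55 to 0.17). TEAD (GGAATG) was at 11.8% of members against 10.5% of shifted windows, IRF (AAGTGAAA) at 1.49% against 1.26%, STAT (TTCNNNGAA) at 5.90% against 6.69% and CREB (TGACGTCA) at 0.371% against 0.186%. STAT was 1.13 points (0.03 to 2.29) above the 4.78% of the peaks in both lists.

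**Figure D1:**
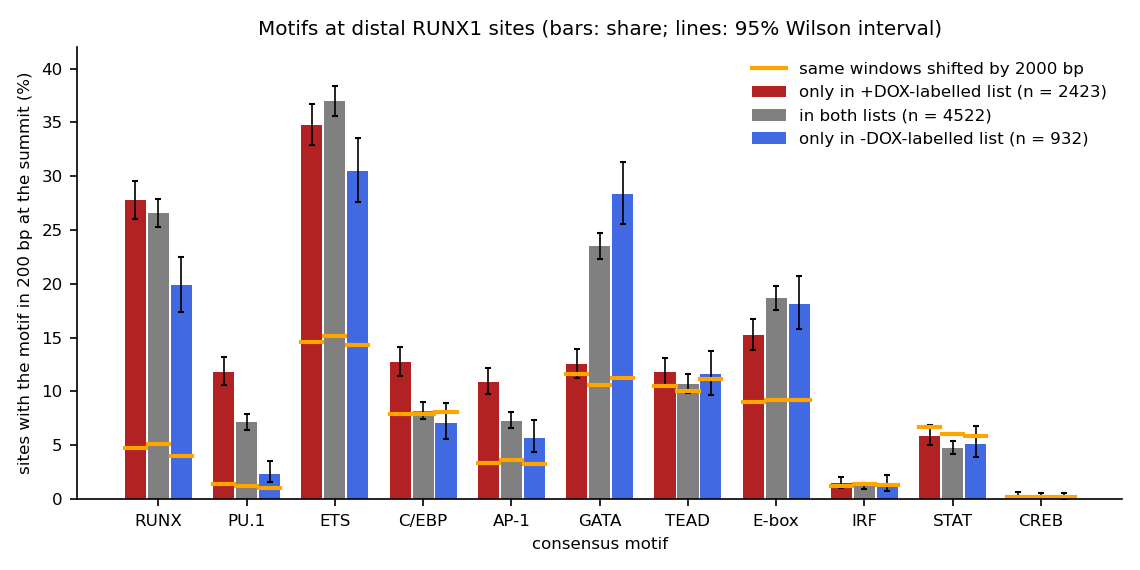
Share of distal RUNX1 sites (percent, y axis) with each of 11 consensus motifs (x axis) in the 200 bp at the summit, for the 2423 members, the 4522 peaks in both lists and the 932 only in the -DOX-labelled list. Bars are shares, black lines 95% Wilson intervals, and orange lines the share in windows shifted by 2000 bp. For PU.1, C/EBP and AP-1 the members stand highest of the 3 classes, and for GATA they stand near the shifted windows.

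Since the members had lower scores than the peaks in both lists, the motifs were also compared among peaks of like score. PU.1 was more frequent at members in each of 4 score ranges, by 3.94 points (1.52 to 6.22) at scores of 5 to 7.5, 6.59 (3.46 to 9.85) at 7.5 to 10, 9.18 (5.56 to 13.2) at 10 to 15 and 8.19 (3.32 to 14.4) above 15. C/EBP was likewise more frequent in each range, by 4.16 points (1.60 to 6.59), 4.44 (0.85 to 8.11), 6.14 (2.50 to 10.2) and 7.96 (3.17 to 14.1). GATA was less frequent in each, with differences of -11.5 (-15.2 to -7.89), -11.5 (-15.6 to -7.41), -15.3 (-19.4 to -10.9) and -13.2 points (-16.9 to -8.00). The AP-1 difference was 2.49, 3.21 and 2.55 points in the lower 3 ranges, each with an interval that held 0. Above 15 it was 11.3 points (6.19 to 17.6), from 18.2% of 181 members and 6.97% of 2182 peaks in both lists. RUNX was higher at members by 3.69 points (-0.15 to 7.42), 6.82 (1.86 to 11.8), 3.05 (-1.95 to 8.25) and 4.10 (-2.68 to 11.5), with an interval that left out 0 at scores of 7.5 to 10 alone.

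**Figure D2:**
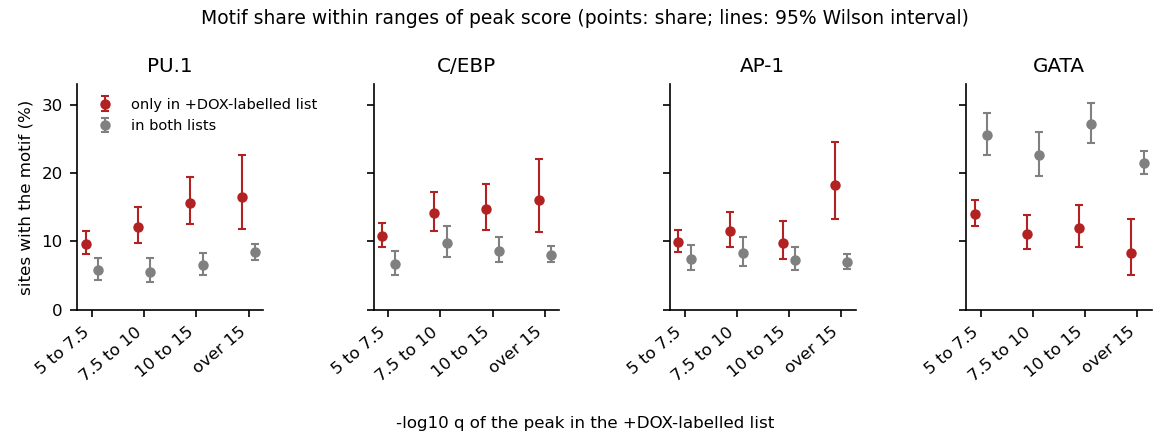
Share of sites with PU.1, C/EBP, AP-1 and GATA (percent, y axis) within ranges of the -log10 q of the peak (x axis), for members in red and distal peaks in both lists in grey. Points are shares and lines 95% Wilson intervals. PU.1 at members goes from 9.67% in the lowest range to 16.6% in the highest, and GATA at members lies below that of the shared peaks throughout.

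Matches to RUNX, PU.1 and AP-1 were densest at the summits. Within 50 bp of the summit the members held 23.4 RUNX matches per 100 sites, against 2.93 per 100 bp at a distance of 500 to 1000 bp. PU.1 had 8.58 against 0.636, a ratio of 13.5, and AP-1 had 6.77 against 1.93, a ratio of 3.504. The ratio for C/EBP was 1.85, and at the peaks in both lists 1.19. GATA had a ratio of 1.31 at members, 2.80 at the peaks in both lists and 3.28 at the -DOX-only peaks. In the 200-bp windows, one or more of PU.1, C/EBP and AP-1 was found at 31.7% of members (29.8 to 33.5), 20.96% of the peaks in both lists and 14.6% of the -DOX-only peaks. GATA without any of these was at 9.53%, 18.7% and 24.1%. RUNX and C/EBP occurred in the same window at 100 members, RUNX and PU.1 at 71, PU.1 and AP-1 at 28 and PU.1 and GATA at 21. Independent motifs with the same shares would give 85.5, 79.7, 31.3 and 36.0 members for these pairs. The differences from these numbers were not tested. None of the 6 motifs RUNX, PU.1, ETS, C/EBP, AP-1 and GATA was found at 27.4% of members, against 62.3% of shifted windows.

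**Figure D3:**
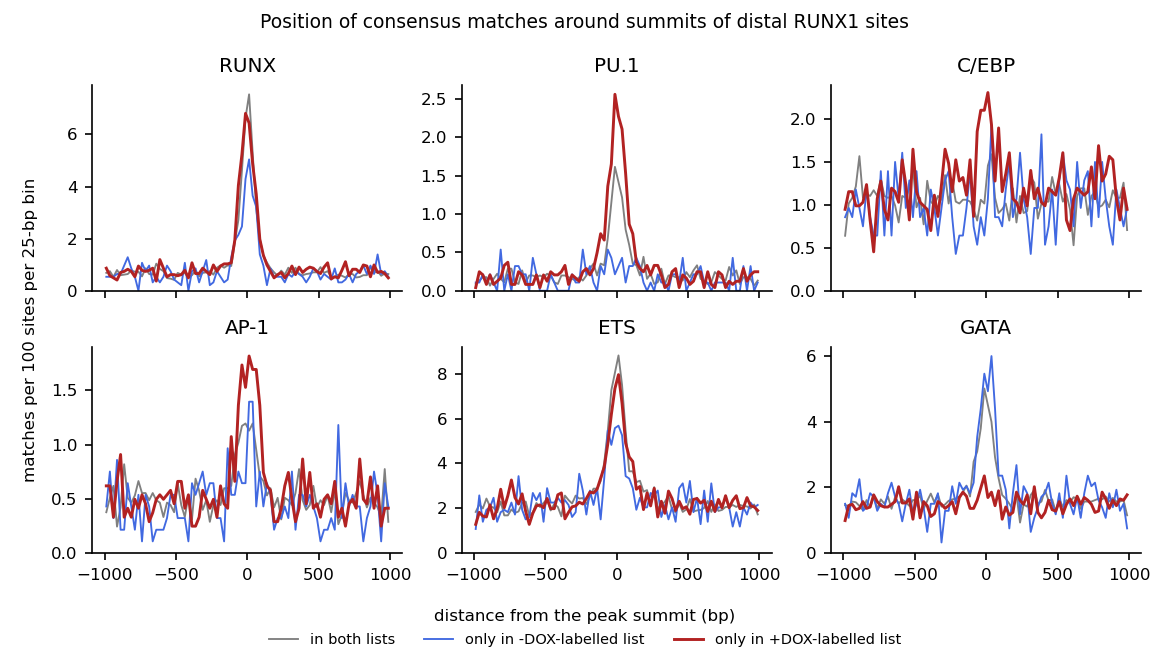
Consensus matches per 100 sites in bins of 25 bp (y axis) against the distance from the summit in bp (x axis), 1 panel per motif. Members are the thick red line, peaks in both lists grey and those only in the -DOX-labelled list blue. PU.1 and AP-1 peak highest at members, and the GATA line of the members stays almost flat where the other classes have a peak.

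A count of every word of 7 letters in the 100 bp at the summit was made with no motif named. Of the 10 words that stood furthest above shifted windows at members, the first 4 held TGTGGT or GTGGTCA, forms of the RUNX motif, led by TTGTGGT at 13% of members against 1.20%. The next was AGGAAGT, a word inside the PU.1 motif that the ETS form CAGGAAG also holds when a T follows, at 17.8% of members against 2.17% of shifted windows, 12.9% of the peaks in both lists and 5.90% of the -DOX-only peaks. The whole PU.1 motif was in the same 100 bp of 7.51% of members. Among the words most enriched at members over the peaks in both lists were other purine-rich forms, AGGAACT at 6.56% against 2.32% and GGGAAGT at 8.50% against 3.89%. In the opposite direction the GATA word AGATAAG was at 3.18% of members, 7.74% of the peaks in both lists and 9.98% of the -DOX-only peaks. In the windows shifted from members it was at 1.34%, so this longer GATA word stood above that background at members too. The telomere-like repeat word CCCTAAC was at 0.784% of members and 4.09% of the peaks in both lists.

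The strongest members lay at genes of several kinds. The highest score, 42.7, belonged to an intergenic peak 13142 bp upstream of E230025N22Rik. The next, 41.5 with a fold of 13.6, was the first sequence shown, in an intron of the non-coding gene 2310067P03Rik. The nearest protein-coding start was that of Mef2c, 429611 bp away, which encodes a transcription factor of lymphoid, megakaryocyte and muscle cells. A member in an intron of Mfsd6, a gene of the major facilitator superfamily, had a score of 40.4 and an AP-1 match. Kalrn had an intronic member with a score of 31.3 and the AP-1 match shown above. Cytip, a regulator of leukocyte adhesion, had one with RUNX at 28.4. A member in an intron of Il6ra, which encodes the ligand-binding chain of the IL-6 receptor, had a score of 28.1 with ETS and GATA. Among the 10 with the highest scores, the peak near the non-coding gene Gm37103 (35.9) had none of the motifs, and 64.0% of its window was soft-masked. The peak nearest to Gm47482, in an intron of Taf1b, had 30.01 with RUNX and ETS, and another of the 10, nearest to AC111128.2, had 28.2 with RUNX and AP-1.

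Members were spread over many genes. The nearest start belonged to 2196 different genes, 201 of which were nearest to at least 2 members and 19 to at least 3. With protein-coding starts alone there were 2025 genes, 326 with at least 2 and 54 with at least 3. Asb2, part of a ubiquitin ligase first known from myeloid cells treated with retinoic acid, had 4 members with scores from 5.50 to 15.04 and 0 peaks in both lists. Tns3, which encodes a focal adhesion protein, had 4 with scores of 9.69, 10.7, 12.9 and 6.43, of which the first and the last 2 held AP-1 and the second PU.1. Map3k5, a stress-activated kinase of the JNK and p38 pathways, had 4 as its nearest gene, and 3 of them were nearer to the start of Map7 among protein-coding genes. They included the peak shown above with PU.1 and AP-1 side by side, at a score of 8.94. Sgms1, a sphingomyelin synthase, had 4 (5.40 to 9.82), 3 of them with RUNX. Unlike Asb2, these genes were also nearest to peaks in both lists, 3 each for Tns3 and Map3k5 and 4 for Sgms1. The lincRNA 3300005D01Rik, upstream of Snx9, also had 4 members, and Rubcnl (up to 18.2), Gm16225 (up to 16.6), Pde4d (up to 13.4) and Zakit (up to 12.96) had 3 each. Their peaks in both lists numbered 1, 1, 2, 1 and 0. The most members, 5, were nearest to the pseudogene Gm49792. Those had none of the motifs and folds from 2.896 to 4.48, between 54.5% and 88.5% of their windows was soft-masked, and 7 peaks in both lists lay in the same stretch. Of these 5 members, 4 lay under peaks of both H3K27me3-labelled lists. Pcdh9, which encodes a protocadherin, had 6 members as its nearest coding gene, as far as 2217029 bp from its start, beside 2 peaks in both lists. By the same measure Foxn3, a forkhead repressor, had 5 beside 3 peaks in both lists. Haao, Map3k20, Fam198b and Sipa1l2 had 4 members each, beside 1 peak in both lists each.

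Genes of blood, vessel and connective tissue lineages were then grouped in 13 lists, and each list was read against the 34.9% of all distal peaks of the library that were members. This background took no account of peak score. At scores of 5 to 7.5 there were 1230 members beside 767 peaks in both lists, and above 15 there were 181 beside 2182. The part of peak score in the shares of the lists was not tested. The nearest start was that of a protein-coding gene at 55.5% of members, so the same lists were also read by the nearest protein-coding start, a choice made after seeing the data. Of the distal peaks whose nearest start was that of a myeloid granule or phagocyte gene, 5 of 9 were members (55.6%, 26.7 to 81.1), and by protein-coding starts 6 of 17 (35.3%, 17.3 to 58.7). These intervals are wide and hold the background. The highest score, 13.9, was in an intron of Ncf4, which encodes a subunit of the phagocyte NADPH oxidase, with ETS and C/EBP. Another oxidase subunit gene, Ncf1, had a member 3183 bp upstream with a score of 8.56. Itgb2, the beta chain of leukocyte integrins, had an intronic one with C/EBP (10.7), Adgre1, which encodes the macrophage marker F4/80, one 11523 bp upstream (6.19), and Cd33 one with AP-1 (5.64). Fcgr4, an Fc receptor gene, was the nearest coding gene of one more, at 6.43.

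Genes of innate signalling had 3 of 13 by the nearest start and 10 of 24 (41.7%, 24.5 to 61.2) by protein-coding starts. Lyn, a Src-family kinase of myeloid and B cells, had 3 members upstream, at 51196, 30893 and 28908 bp with scores of 15.2, 5.63 and 14.7, and no other distal peak of that score in either list. Nfkb1, an NF-kappa B subunit gene, was the nearest coding gene of a peak inside Manba (13.5). The adaptor gene Lcp2 had 2 (9.37 and 5.43), beside peaks in both lists with scores of 46.0 and 5.30. Nod2, a sensor of bacterial cell wall, had 1 member (7.24). For cytokine and chemokine receptors the counts were 8 of 21 (38.1%, 20.8 to 59.1) and 14 of 36 (38.9%, 24.8 to 55.1). Il4ra, the IL-4 receptor chain, had the strongest by nearest start, 3409 bp into the gene with a score of 24.9 and RUNX, PU.1, ETS and C/EBP in its window. Ifnar2, a chain of the type I interferon receptor, had members 5504 and 17991 bp upstream (14.4 and 6.92), but peaks of the other list lay only 193 and 297 bp away. Csf2ra, the GM-CSF receptor alpha chain, had 1 with GATA (12.3), and the chemokine receptor genes Ccr1 and Cx3cr1 had 1 each, both with RUNX and ETS (10.6 and 10.5). Leukocyte adhesion genes had 2 of 4 and 3 of 6, with Cd44 at 9.05. Mast cell, basophil and eosinophil genes had 2 of 6 and 3 of 9, with Siglecf at 11.3. Lymphoid genes had 3 of 6 and 5 of 14, among them the B-cell adaptor gene Blnk (12.6), Ebf1, a B-lineage factor (8.08, with AP-1), and Gata3, a T-lineage factor (8.08).

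Erythroid genes had 0 of 12 distal peaks among the members by the nearest start, an upper bound of 24.2% that lay below the background, and 3 of 20 (15%, 5.24 to 36.0) by protein-coding starts. The 3 were 2 near Fech, the last enzyme of heme synthesis (10.4 and 6.43), which had no peak of the other classes, and 1 in the beta-globin cluster, nearest to Hbb-y (6.04), whose window was 72.5% soft-masked and which had a peak of the other list 259 bp away. Megakaryocyte and platelet genes had 1 of 13 (7.69%, 1.37 to 33.3), an interval that also lay below the background, and 5 of 20 (25%, 11.2 to 46.9) by protein-coding starts. The platelet integrin gene Itgb3 had an intronic member with RUNX, ETS and GATA (15.2). The other 4 were nearest to the coding start of Thbs1, thrombospondin, at 362622, 142950, 115512 and 99964 bp upstream with scores of 24.5, 9.82, 8.56 and 7.24. Thbs1 also had 3 peaks in both lists, with scores up to 41.4. Endothelial and hemogenic endothelium genes had 3 of 20 (15%, 5.24 to 36.0), and 4 of 33 (12.1%, 4.82 to 27.3) by protein-coding starts, of which the latter lay below the background. Those by nearest start were at Mecom (18.6), a factor of hematopoietic stem cells, and at the receptor genes Notch4 (10.9) and Notch1 (6.58). Mesenchymal and smooth muscle genes had 0 of 4 and 1 of 7. This was an intergenic peak (14.6) whose nearest start was that of Gm42799, with Pdgfra as the nearest coding gene. The lists share genes, such as Itgb2, Gata3 and Mecom, and the differences between lists were not tested. Each interval stands alone, with no allowance for peak score, the 13 lists and the ways of naming the gene that were read.

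**Figure D4:**
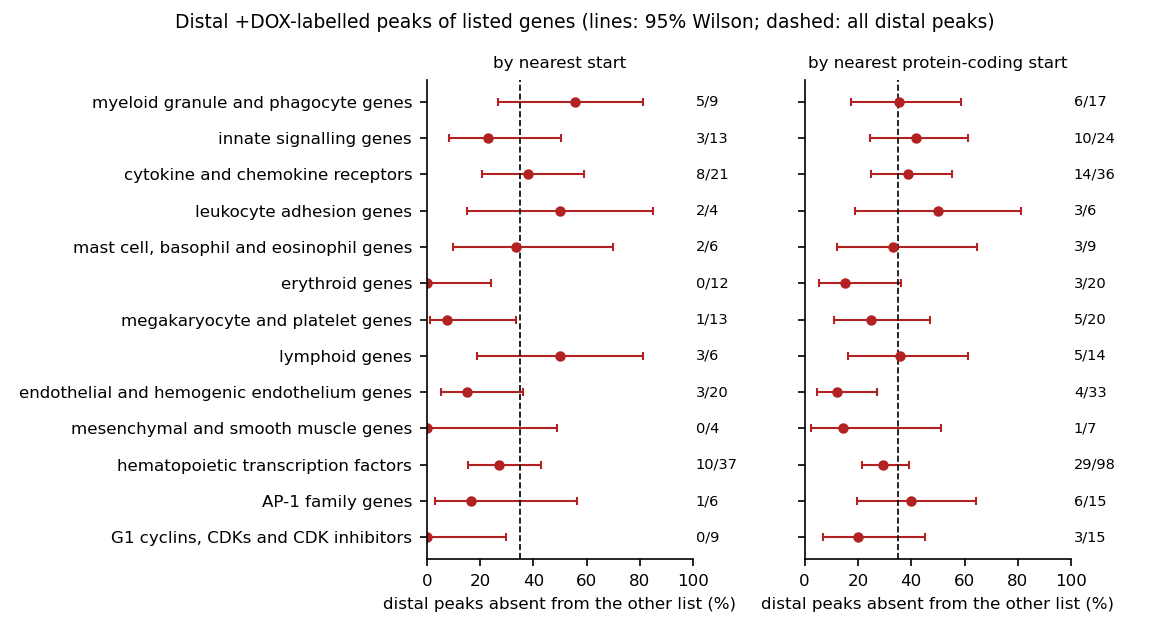
Percent of the distal peaks of each of 13 gene lists that were members (x axis, 0 to 100), by the nearest start (left) and the nearest protein-coding start (right). Points are shares, lines 95% Wilson intervals, numbers at the right the members over the distal peaks, and the dashed line the 34.9% of all distal peaks. Most intervals cross the dashed line, and those for erythroid, megakaryocyte and G1 cell cycle genes by the nearest start, and for endothelial genes by the nearest protein-coding start, lie below it. Peak score was not accounted for.

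Hematopoietic transcription factor genes had 10 of 37 distal peaks among the members (27.03%, 15.4 to 42.98) and 29 of 98 (29.6%, 21.5 to 39.3) by protein-coding starts, near the background in both. Runx1 itself had 3 by its coding start beside 8 peaks in both lists and 1 only in the library labelled -DOX. The strongest of the 3, at 24.5, was the intronic peak with GATA shown above, 25116 bp into the gene, and a peak of the other list lay 399 bp from it. Another intronic one held RUNX (8.94), and the last lay 41254 bp upstream (6.82). Runx3, a RUNX factor of lymphoid and myeloid cells, had 3 upstream, at 90702, 61465 and 34995 bp (10.4, 11.9 and 16.6), the last with PU.1, beside 3 peaks in both lists. Mef2c had 3 (41.5, 6.62 and 8.94), each with RUNX, beside 4 in both lists. Lmo2, a bridging factor of the SCL complex, had 2, at 51228 and 12011 bp upstream (10.99 and 9.37). Id2 had 2, at 90245 and 112005 bp upstream (6.96 and 6.43). Klf4, a monocyte factor, had 2 far upstream, at 104020 and 586006 bp (7.24 and 5.39). Peaks in both lists also lay nearest to Lmo2 (24.4 and 6.76), Id2 (14.2 and 8.94) and Klf4 (11.6). Cebpd had a member in an exon with PU.1 and ETS (10.8). Members nearest to the coding start of Myb (10.7), Myc (11.8), Zeb2 (13.5), Bcl11a (9.66), Gfi1 (6.05) and Cebpb (6.12) were also found. Cd33, Cx3cr1, Id2, Klf4, Batf3 and the 6 genes of the last sentence were named after their values were seen.

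The AP-1 family genes had 1 of 6 by the nearest start and 6 of 15 (40%, 19.8 to 64.3) by protein-coding starts. Fosl2, which encodes the FOS relative FRA2, had 2 members, in an intron of Babam2 58481 bp upstream (27.4, PU.1 and AP-1, shown above) and 23127 bp upstream (16.4, RUNX and ETS), and no other distal peak of that score in either list. Jun had 1 in an intron of Junos, 53932 bp upstream (13.9, none of the motifs), Fos 1 at 5084 bp upstream (12.8, ETS), and Batf and Batf3, which pair with JUN proteins in immune cells, 1 each (8.94 and 7.17). Beside the Fos member lay distal peaks in both lists with scores of 25.7, 21.3 and 12.96. None of the 9 distal peaks nearest to a gene of a G1 cyclin, CDK or CDK inhibitor was a member, an upper bound of 29.9%, while by protein-coding starts 3 of 15 were (20%, 7.05 to 45.2). Cdk6, the D-cyclin partner kinase of hematopoietic cells, had 2, 189271 and 40124 bp upstream (16.5 and 11.6), both with AP-1 and with no other distal peak beside them. Cdkn1b, the gene of the inhibitor p27, had 1 (9.56).

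**Figure D5:**
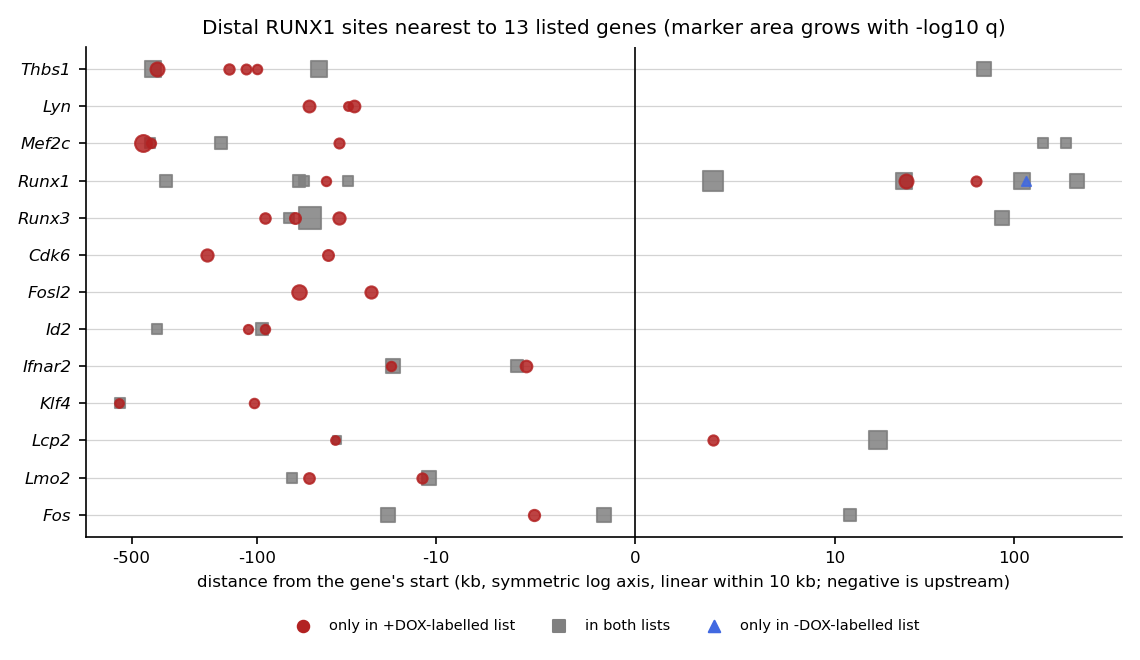
Distance of distal RUNX1 sites from the start of the gene in kb (x axis, symmetric log scale, linear within 10 kb, negative upstream) for 13 listed genes (y axis). Red circles are members, grey squares peaks in both lists and blue triangles those only in the -DOX-labelled list, and marker area grows with -log10 q. Of the genes drawn, Lyn, Cdk6 and Fosl2 have members only, and Runx1 has 8 shared peaks beside its 3 members.

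Members seldom lay under H3K27me3-labelled peaks. A summit under a peak of either H3K27me3-labelled list was found at 3.92% of members (3.22 to 4.77), 13.05% of the peaks in both lists (12.1 to 14.1) and 8.91% of the -DOX-only peaks (7.24 to 10.9), intervals that did not overlap that of the members. Wider peaks have more room to overlap, and the median width was 221 bp for members and 317 bp for peaks in both lists. The part of peak score and width in these shares was not tested. The title and the treatment label of those libraries contradict each other, so they were assigned to no condition. Members were also found near one another and near shared sites. Another member lay within 50000 bp of 22.2% of members (20.6 to 23.9), and a distal peak in both lists within that distance of 35.0% (33.2 to 37.0). For a distal peak in both lists, another such peak was within that distance at 38.6% and a member at 22.4%.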

How the data were processed

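RUNX1 ChIP-seq was represented by 2 peak lists and H3K27me3 by 2, with 1 library each. Per the labels and methods, the authors aligned reads to mm10, removed duplicates and called the peaks of each library with MACS2, keeping a q-value of 0.05. The submitters' processing notes name Bowtie2 2.2.9 and MACS2 2.1.1. No input control is named in the sources used here. For each peak the authors deposited the fold enrichment, a ratio over the local background, and the -log10 of the p-value and of the q-value. The lists hold no reads, so depth is unknown, and tag counts were not analysed here.

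Overlaps, distances to GENCODE release 21 starts and motif matches were computed in Python 3.11.15 and numpy 2.4.6, with figures drawn with matplotlib 3.10.9. The sequences are the RefSeq GRCm38 reference (mm10), which is not the cells' own sequence. The 11 consensus motifs were searched on both strands of 200 bp at the summit. PU.1 and ETS share GGAA but cannot match at the same place. On simulated data all 3000 peaks were placed in their class and all 5500 planted motifs found.

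Genes named were those of the 10 members with the highest score, the 10 genes with the most members, and up to 4 per list; 1 of the first 10 is not reported here. The members and the lists (359 genes, 347 on chromosomes 1 to 19) were chosen with earlier results of these data known. Alternatives changed the score, the overlap and distance rules, the motif window and the gene assignment. The H3K27me3 libraries were not assigned to a condition.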

Additional observations from a re-analysis of the deposited data

Results flagged for a closer look

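The H3K27me3-labelled lists entered no comparison between conditions, but members lay under their peaks. Peaks of the list titled H3K27me3-d2-float-DOX overlapped 81 members (3.34%, 2.70 to 4.14). Those of the list titled H3K27me3-d2-float-untr overlapped 54 (2.23%, 1.71 to 2.896), and 40 were under both. For the distal RUNX1 peaks in both lists the shares were 12.3% and 11.3%. No control library was at hand against which to read these counts, and the protocol given with these libraries names an antibody against RUNX1.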

How the results depend on the processing

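In 10 of 10 alternatives PU.1, C/EBP and AP-1 stayed more frequent, and GATA less frequent, at members than at distal peaks in both lists, with intervals that excluded 0. ETS was less frequent at members in 10 of 10, with an interval that excluded 0 in 6. The RUNX difference kept its sign in 7 of 10. It was -2.02 points (-3.77 to -0.26) with no minimum score, 2.17 (0.14 to 4.22) with protein-coding starts only, -0.545 under 50% soft-masked and -0.935 without sites under H3K27me3-labelled peaks, the last 2 with intervals that held 0. A -log10 q of at least 10 left 608 members and gave RUNX 29.8%, PU.1 16.0% (8.12 points above shared peaks), ETS 37.0%, C/EBP 15.1% (6.91), AP-1 12.3% (5.28) and GATA 10.9%. It also gave 0% (0 to 35.4) for innate signalling genes and 12.5% (4.34 to 31.0) for hematopoietic transcription factors. These shares cannot be set against the background used for the gene lists, which holds for scores of at least 5. At scores of 10 to 15 there were 427 members beside 906 peaks in both lists, and above 15 there were 181 beside 2182. With no minimum there were 4245 members, RUNX was at 23.7%, PU.1 at 10.4% and ETS at 32.3%. G1 cell cycle genes reached 30.8% (12.7 to 57.6) in that setting, a share that cannot be set against that background either. A window of 100 bp gave RUNX 19.5%, PU.1 7.51% (2.87 points), ETS 23.0%, C/EBP 7.35% (2.66), AP-1 6.07% (1.89) and GATA 7.06% (-8.07), and a window of 400 bp gave 33.2%, 14.4%, 48.7%, 20.6%, 14.7% and 21.01%, as the length searched sets these shares. Without mostly soft-masked sites ETS was at 37.2%. Without sites under H3K27me3-labelled peaks the differences were -5.53 points for ETS and -13.3 for GATA. Taking any listed start within 100 kb, chosen after seeing the data, gave 31.8% for G1 cell cycle genes. The cause of the other shifts was not tested. Of the remaining values, 220 moved by less than their counting interval or 1.5 times. No paired analysis was possible because each label had 1 library. A peak absent from one list is not a measured loss of binding, and neither label nor treatment has a replicate.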
